A study of Mus musculus with 2 samples.

Results

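A minority of endothelial cells (ECs) in a tumour that had received no STING agonist carried abundant transcripts of Cxcl9, a chemokine that attracts T cells. These Cxcl9-expressing ECs were defined as the cells of the PBS library whose deposited value of Cxcl9, the natural log of 1 plus the UMIs (unique molecular identifiers, each counting 1 captured transcript) per 10000 UMIs of the cell, was at least 1. The cells were thus chosen by Cxcl9 alone. They numbered 180 of 2517 PBS ECs, or 7.15% (exact 95% binomial interval 6.18 to 8.23), among the 3857 ECs of the series. They are described against the 2011 PBS ECs with a Cxcl9 value of 0, the Cxcl9-zero ECs, which made up 79.9% of the library. The other 326 PBS ECs had a value above 0 and under 1. The level of Cxcl9, and the classes of it used further on, are therefore descriptions.

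The study used droplet-based single-cell RNA sequencing of ECs isolated from subcutaneous Lewis lung carcinoma (LLC) tumours, a transplantable line of C57BL/6 origin, in adult C57BL/6 mice (C57BL/6 J in the methods). CD31-positive ECs were sorted after an intratumoural injection of PBS in the control mouse or of cGAMP, the cyclic dinucleotide that activates STING, in the treated mouse. Each library came from 1 mouse, so the spread between mice is unknown, no test was made, and every interval given covers counting error only. The cells of 1 library are not replicates. Sources differ on the version of the droplet kit and on the time from injection to sampling.

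Cxcl9 and its neighbour Cxcl10 encode ligands of the receptor CXCR3, which activated T cells and natural killer cells carry. They lie next to each other on chromosome 5 (GRCm38, 92321347 to 92328079 for Cxcl9 and 92346638 to 92348889 for Cxcl10, minus strand). Both are classical targets of interferons, and Cxcl9 in particular is known as a gene that interferon gamma induces through transcription factors that include IRF1. Type I interferons act mainly through a complex that contains STAT2 and IRF9 and binds the interferon-stimulated response element and switches on antiviral genes. Endothelium can respond to both kinds of interferon, and can also take up expression of MHC class II genes under interferon gamma.

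The promoters of 4 genes that separate the Cxcl9-expressing from the Cxcl9-zero ECs are shown here to place the chemokines beside the antiviral genes discussed further on. The sequences are the 250 bases before the start of each gene from RefSeq, on GRCm38.p6, at chr5:92328080-92328329 (minus strand) for Cxcl9, chr5:92348890-92349139 (minus strand) for Cxcl10, chr19:34583279-34583528 (plus strand) for Ifit3 and chr12:26456453-26456702 (minus strand) for Rsad2. Capitals mark matches, on either strand, to the core of the interferon-stimulated response element (GAAA, any 2 bases, GAAA) or to a short kappa-B form (GGG, any 2 bases, TTCC). The short form was added after the Cxcl9 sequence had been seen.
Cxcl9: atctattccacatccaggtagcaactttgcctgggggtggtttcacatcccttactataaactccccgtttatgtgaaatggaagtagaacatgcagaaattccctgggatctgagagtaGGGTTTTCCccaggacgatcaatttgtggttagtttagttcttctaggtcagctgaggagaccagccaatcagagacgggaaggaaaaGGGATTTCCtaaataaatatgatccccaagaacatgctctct
Cxcl10: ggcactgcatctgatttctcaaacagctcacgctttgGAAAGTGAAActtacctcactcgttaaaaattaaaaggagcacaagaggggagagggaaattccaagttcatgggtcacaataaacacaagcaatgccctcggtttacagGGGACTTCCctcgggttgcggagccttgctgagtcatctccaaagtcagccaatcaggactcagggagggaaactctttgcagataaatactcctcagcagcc
Ifit3: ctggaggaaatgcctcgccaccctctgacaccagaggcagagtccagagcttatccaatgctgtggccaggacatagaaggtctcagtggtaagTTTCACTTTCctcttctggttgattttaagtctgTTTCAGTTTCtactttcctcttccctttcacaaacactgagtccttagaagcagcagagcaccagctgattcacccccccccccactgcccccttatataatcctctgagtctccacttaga
Rsad2: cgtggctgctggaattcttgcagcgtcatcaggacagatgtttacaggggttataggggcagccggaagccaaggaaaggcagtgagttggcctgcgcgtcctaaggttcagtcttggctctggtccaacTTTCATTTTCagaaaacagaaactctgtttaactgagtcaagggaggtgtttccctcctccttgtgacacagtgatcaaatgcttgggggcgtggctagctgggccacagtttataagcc

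The core of the response element matched in Cxcl10, Ifit3 and Rsad2, with 1, 2 and 1 matches, and not in these 250 bases of Cxcl9. It was also found in the promoter of Gbp2 (1 match) and not in that of Irf7 (0 matches to any of the motifs), which were searched but are not printed. It occurred in 2.98% of 32851 RefSeq promoters of the same length. At least 1 promoter held it for 10 of 11 listed interferon-inducible GTPase genes and 9 of 25 listed antiviral genes with a RefSeq promoter, against 3.46% of all genes. The short kappa-B form matched at 2 places in Cxcl9 and 1 in Cxcl10, and in 4.98% of all promoters. The longer kappa-B form (with TTTCC in place of TTCC, in 1.41% of promoters) and the gamma-activated site (TTC, any 3 bases, GAA, in 7.02%) had no match in the 4 sequences. At least 1 promoter held the gamma-activated site for 6 of the 11 GTPase genes and 4 of the 25 antiviral genes, against 8.13% of all genes. A match describes letters in this window and is no evidence of binding, and the lack of one says nothing about the factor.

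Among the Cxcl9-expressing ECs the Cxcl9 value ran from 1.0097 to 4.97, with a median of 2.24. In UMIs, a cell held between 1 and 546, with a median of 30.5 and quartiles of 13 and 75.25. These cells contained 93.9% of all Cxcl9 UMIs of the PBS library. The 10 cells with the most UMIs held 29.97% of those in the group, and 34 cells had over 100 each. At the other end, 4 cells passed the threshold with 1 UMI and 7 with at most 3, because they were shallow. The values nearest to the threshold were 1.0097 inside, from 5 UMIs among 28655, and 0.9995 outside, from 9 UMIs among 52416, so that the group ends in a continuum and not at a gap.

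**Figure D1:**
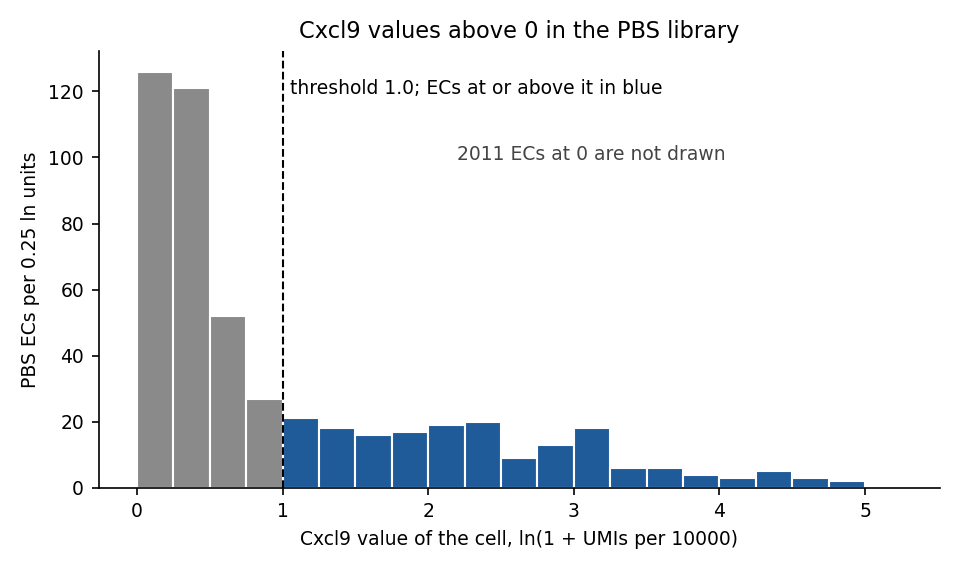
Number of PBS ECs (y axis) by Cxcl9 value, ln(1 + UMIs per 10000), in steps of 0.25 (x axis), for cells above 0. The 180 blue cells at or above the threshold spread up to 4.97, the 326 grey cells lie under it, and the 2011 cells at 0 are not drawn.

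The Cxcl9-expressing ECs were the deeper cells, with a median of 34320 UMIs and 5676.5 genes per cell, against 27752 UMIs and 5132 genes in the Cxcl9-zero ECs, and the cells with values between had 44554 UMIs. With the Cxcl9-zero ECs weighted to the depths of the Cxcl9-expressing ECs, the list medians given below for the GTPases and the antiviral genes were 2.83 and 2.10. The median mitochondrial share was 3.89% and 4.57% of UMIs. The PBS library held 92081146 UMIs, and 1 cell barcode occurred in both libraries. Expression was therefore compared as UMIs of a gene summed over each group and given per 1000000 UMIs (CPM), with the log2 ratio of Cxcl9-expressing over Cxcl9-zero ECs. Of 9510 genes with at least 5 CPM in either group, Cxcl9 not counted, 185 (1.95%) were at least 2-fold higher in the Cxcl9-expressing ECs and 80 (0.841%) at least 2-fold lower, and the median gene had a log2 ratio of -0.06. At least 1.5-fold higher were 3.49%, at least 1.5-fold lower 3.38%, and higher by any size 37.4%. Every count over a list below stands against these shares.

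Cxcl10 and Ccl5 had, Cxcl9 apart, the highest ratios of all genes with at least 20 CPM in either group. Cxcl10 stood at 919 CPM (exact Poisson 95% interval 898 to 941) in the Cxcl9-expressing ECs and 10.4 CPM (9.67 to 11.2) in the Cxcl9-zero ECs, an 88.2-fold difference or 6.46 on the log2 scale. The Cxcl9-expressing ECs, 7.15% of the cells, held 81.5% of the library's Cxcl10 UMIs. Even so, 81 of the 180 cells had no Cxcl10 UMI, so that 99 (55.0%, 47.4 to 62.4) carried both chemokines. Ccl5, a chemokine that attracts T cells and monocytes, measured 63.2 against 0.446 CPM. That difference came from few cells: 16 of the 180 had a Ccl5 UMI, 1 of them held 57.1% of the group's UMIs, and without it the log2 ratio was 5.93 instead of 7.15. Cx3cl1, the membrane-bound ligand of CX3CR1, was at 8.33 and 7.12 CPM (log2 ratio 0.23, -0.18 to 0.61). Cxcl11, the remaining ligand of CXCR3, was not analysed here.

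Myeloid and other chemokines, a list that includes the growth factor gene Csf1, had smaller ratios. Of 5 measured genes none was 2-fold higher, 2 were at least 1.5-fold higher (Ccl2 and Cxcl2) and 1 was 2-fold lower. Ccl2, the main monocyte attractant, had 275 against 178 CPM, and 23.9% of the UMIs in Cxcl9-expressing ECs came from 1 cell. Cxcl1 had 56.1 against 48.5 CPM. Cxcl2 had 26.1 against 14.9 CPM, a log2 ratio of 0.80 that dropped to 0.14 without the single cell with the most UMIs. Cxcl12, a constitutive chemokine that arterial ECs produce, was lower, at 56.5 against 115 CPM (log2 ratio -1.03). Among chemokine receptors, the atypical receptor gene Ccrl2 was higher, at 22.9 against 6.16 CPM (log2 ratio 1.89). Cxcr4, the receptor of Cxcl12 and a marker of tip-like ECs, had a log2 ratio of 0.79. The scavenging receptor gene Ackr1, which marks venous ECs, had -0.87.

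All 15 measured genes of the interferon-inducible GTPases were at least 2-fold higher, with a median log2 ratio of 2.70. The list holds the guanylate-binding proteins (Gbp) and the immunity-related GTPases (Irg family), which attack vacuoles of intracellular pathogens. Gbp2 was at 437 CPM (422 to 452) in the Cxcl9-expressing ECs and 29.6 CPM (28.3 to 30.9) in the Cxcl9-zero ECs, a log2 ratio of 3.88. Gbp5, which also assists inflammasome activation, was at 120.0 and 7.43 CPM, a log2 ratio of 4.01. Iigp1 reached 682 against 78.9 CPM and Igtp 140.2 against 13.8 CPM. The smallest differences were those of Gvin1 and Gbp9, with log2 ratios of 1.61 and 1.45. Tgtp1 and Tgtp2, at 3.38 and 3.85, are near-identical copies and uncertain where the counting divided their reads. No single cell held more than 12.5% of the group's UMIs for any of these genes.

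The antiviral interferon genes followed, with 29 of 33 measured genes at least 2-fold higher, none lower and a median log2 ratio of 2.06. Rsad2, which encodes the antiviral enzyme viperin, was at 700 CPM (681 to 719) and 34.3 CPM (33.0 to 35.8), a log2 ratio of 4.35. Cmpk2, its neighbour on chromosome 12, had 158 against 10.2 CPM. Ifit2 and Ifit3, whose products bind viral RNA, had log2 ratios of 4.48 and 4.21. Ifit3b resembles Ifit3 in sequence, and its ratio of 4.36 is uncertain for that reason. Isg15, a ubiquitin-like modifier, was abundant in both groups, at 937 and 156 CPM. Zbp1, a sensor of unusual nucleic acids, had 128 against 10.6 CPM. Oas3 and Mx1 had the largest ratios, 6.83 and 5.61, at low levels of 6.75 and 14.6 CPM in the Cxcl9-expressing ECs. The 4 genes under 2-fold were Samd9l, Ifitm3, Ddx58 and Ifi27l2a, with log2 ratios between 0.45 and 0.86. Ifitm3 was among the most abundant transcripts in both groups, at 3869 and 2191 CPM.

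**Figure D2:**
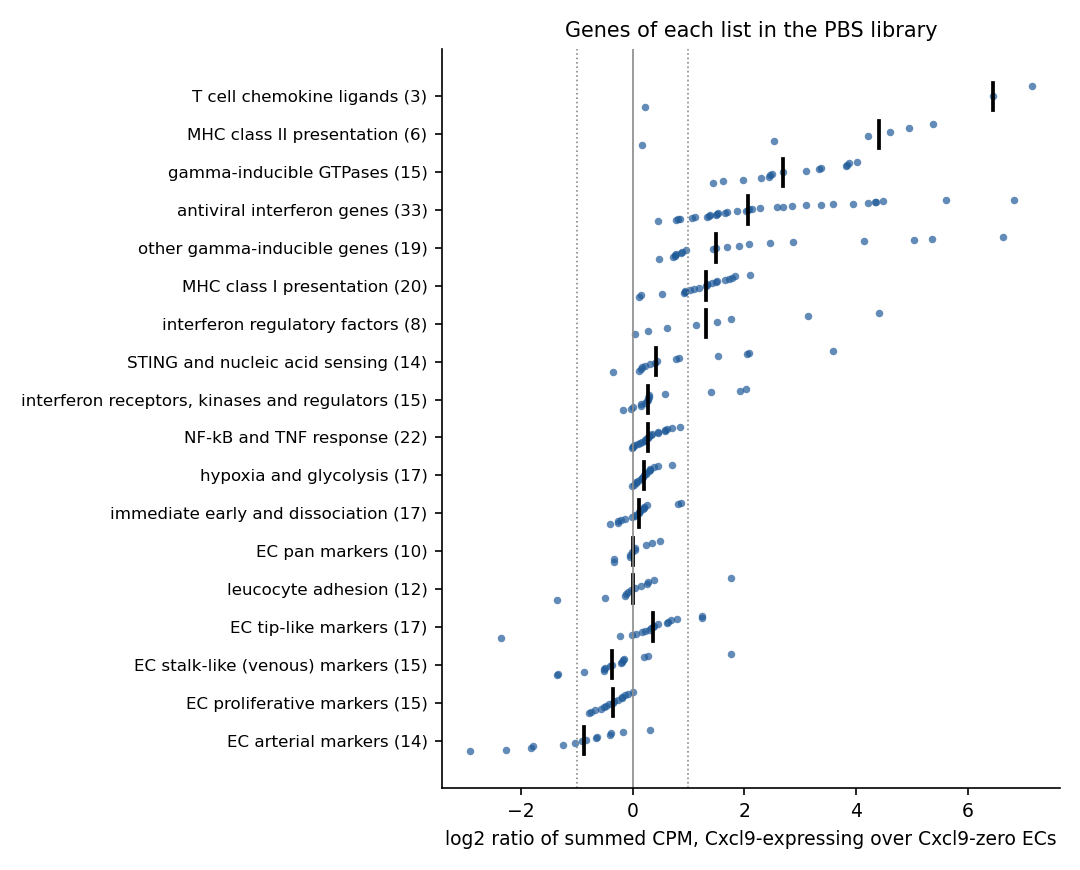
Log2 ratio of summed CPM, Cxcl9-expressing over Cxcl9-zero PBS ECs (x axis), for each measured gene (point) of each list (y axis, number of genes in brackets), with the list median as a black bar and 2-fold marked by dotted lines. All 15 GTPase points lie to the right of 1, while the 10 pan-EC markers lie around 0 and the arterial markers mostly to its left.

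The receptors of the interferons differed little, whereas their transducers differed more. Ifngr1 and Ifngr2, the chains of the interferon gamma receptor, had log2 ratios of 0.16 and 0.14. Ifnar1 and Ifnar2 of the type I receptor had 0.28 and 0.27, and the kinase gene Jak1 had 0.21. Stat2, specific to type I and III signalling, was at 52.8 against 19.9 CPM (log2 ratio 1.41), and Irf9 had 0.58. Socs1, a feedback inhibitor of Janus kinases, was higher as well, at 20.6 against 5.06 CPM (log2 ratio 2.03). Stat3, which serves other cytokines, was equal at 143.0 and 142.9 CPM. In all, 3 of the 15 genes of this list were at least 2-fold higher and none was lower.

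The list of interferon regulatory factors, which also holds Batf2, Batf3 and Nlrc5, showed the same unevenness. Of its 8 measured genes 5 were at least 2-fold higher. Irf7, the factor that interferons induce to amplify their own response, stood at 374 CPM (360 to 388) against 42.5 CPM (40.9 to 44.1), a log2 ratio of 3.14. Irf1, the factor through which interferon gamma acts on many of its targets, stood at 139 CPM (130 to 147) against 48.4 CPM (46.8 to 50.1), a log2 ratio of 1.52. Nlrc5, the transactivator of MHC class I genes, had 1.77 and Irf8 1.13. Batf2 had the largest ratio of the list, 4.41, from 16.8 against 0.788 CPM. Irf3, a factor that is activated by phosphorylation and not by induction, was at 33.2 and 32.1 CPM.

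Antigen presentation genes followed, class I by modest and class II by large ratios. Of 20 measured class I genes, 14 were at least 2-fold higher and none was lower (median log2 ratio 1.32). H2-K1 was at 2386 against 949 CPM, the peptide transporter Tap1 at 174 against 48.9 CPM, and the immunoproteasome subunit Psmb9 at 175 against 61.5 CPM. The endoplasmic reticulum chaperones Calr and Pdia3 had log2 ratios of 0.15 and 0.12. Of 6 measured class II genes 5 were at least 2-fold higher, at low levels. Cd74, the invariant chain, measured 52.0 CPM (47.0 to 57.4) against 1.25 CPM (0.996 to 1.55), a log2 ratio of 5.38, but 15% of the Cxcl9-expressing ECs, and no more, had a Cd74 UMI. H2-Aa, H2-Eb1 and H2-Ab1 were at 6.88, 7.94 and 14.7 CPM. Class I genes of the H2-Q and H2-T regions are similar to one another, and their separate values are uncertain.

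Of 19 measured genes in a further list of interferon gamma targets, 11 were at least 2-fold higher and none was lower (median log2 ratio 1.49). Ubd, which encodes the ubiquitin-like modifier FAT10, was at 188 CPM (178 to 198) against 4.58 CPM (4.08 to 5.12), a log2 ratio of 5.36, and the Cxcl9-expressing ECs held 74.4% of the library's Ubd UMIs, in 30% of their cells. Cd274, which encodes the checkpoint ligand PD-L1, was at 40.3 against 2.27 CPM (log2 ratio 4.15). The protease inhibitor gene Serpina3g had a log2 ratio of 5.04, uncertain for its similarity to Serpina3f. Serping1, the inhibitor of complement C1, had 31.0 against 4.21 CPM. Il15, a cytokine that sustains T cells and natural killer cells and belongs to another list, had 28.2 against 6.08 CPM (log2 ratio 2.21). Other genes of high ratio that no list held were Ifi209 (6.33), Phf11b (4.70), F830016B08Rik (4.55) and Ifi206 (4.09), of which the Ifi and Phf11 genes have similar copies and are uncertain.

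Genes of the response to NF-kB, which induces chemokines too, had small ratios, nearly all above 0. None of 22 measured NF-kB and TNF response genes was 2-fold higher or lower, 3 were at least 1.5-fold higher and 21 higher by any size, and the median log2 ratio was 0.27. The 3 were Ripk2 (0.84), Tnip1 (0.71) and Tnfrsf9 (0.61). Summed over the list, 10.6% of the Cxcl9-expressing ECs lay above the 95th percentile of the Cxcl9-zero ECs. By the same measure this share was 10.0% for the pan-EC markers and 59.4% for the MHC class I genes. Nfkbia, the inhibitor that NF-kB induces, was at 1126 against 887 CPM, Tnfaip3 at 32.1 against 26.4 CPM and Icam1, an adhesion gene under the same control, at 177 against 146 CPM. Of 12 measured adhesion genes 1 was at least 2-fold higher, Vcam1, at 126 against 37.3 CPM (log2 ratio 1.76), and 1 at least 2-fold lower, Sele. Sele and Selp, the endothelial selectins, had log2 ratios of -1.36 and -0.50. STING itself (Tmem173) was at 123 against 93.5 CPM (0.40), and the kinase gene Tbk1 at 29.6 against 26.4 CPM. The 17 hypoxia and glycolysis genes had a median of 0.21 and the 17 immediate early genes, which tissue dissociation induces, a median of 0.11, with none past 2-fold in either list.

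The Cxcl9-expressing cells were ECs by their markers. Pecam1, which encodes CD31, was found in all 180 and Cdh5, which encodes VE-cadherin, in 178. Over the 10 pan-EC markers the median log2 ratio was 0.01, and Pecam1 was at 973 and 945 CPM. Leucocyte transcripts were rare in both groups: 3.33% of each had a UMI of Ptprc, Csf1r, Itgam or Adgre1. The 16 macrophage and monocyte markers summed to 47.9 CPM in the Cxcl9-expressing and 59.0 CPM in the Cxcl9-zero ECs, with Csf1r at 0.132 and Adgre1 at 0.132 CPM in the former. One of them, Fcer1g, was higher, at 11.1 against 3.61 CPM. The 8 T, NK and B cell markers summed to 2.65 and 2.17 CPM, the 6 neutrophil markers to 1.06 and 1.04 CPM, and the 5 dendritic cell markers to 13.8 and 12.2 CPM, nearly all of it Zbtb46. Without the cells with leucocyte UMIs, the median ratio of the GTPases was 2.74 and that of the antiviral genes 2.09.

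In cells thinned to 5000 UMIs, a Cxcl10 UMI was found in 40.3% of 176 Cxcl9-expressing ECs (33.0 to 48.0) and 3.03% of 1945 Cxcl9-zero ECs (2.32 to 3.90), against 55.0% and 11.1% without thinning. Rsad2 was found in 42.6% and 7.56% after thinning, and in 65.0% and 24.0% before it. Irf7 was found in 69.3% and 15.8%, against 91.1% and 48.0%. For Cd74 the thinned shares were 9.09% and 0.617%, against 15% and 2.04%. Lyz2, a myeloid transcript that ECs should lack, was found in 3.41% (1.26 to 7.27) and 1.59% (1.09 to 2.25) of the same cells, against 18.9% and 11.8% before. In the Cxcl9-zero ECs the thinned share of Cd74 was under that of Lyz2, while that of Cxcl10 was above it. Free RNA of Cd74 and of Cxcl10 was not measured, and Lyz2 sets no bound on it. Neither share in the Cxcl9-zero ECs is therefore read as expression. In the Cxcl9-expressing ECs the intervals of Cd74 (5.29 to 14.3) and Lyz2 overlapped. Thinning left out 4 Cxcl9-expressing and 66 Cxcl9-zero ECs.

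Fewer genes were 2-fold lower than 2-fold higher in the Cxcl9-expressing ECs, although the shares past 1.5-fold were close to each other. Among the 80 genes were 6 of 14 measured arterial markers, which were at least 2-fold lower, while none was 2-fold higher (median log2 ratio -0.87). The gap junction gene Gja4 was at 17.6 CPM against 62.3 CPM (log2 ratio -1.82), with 42.9% of the UMIs of the Cxcl9-expressing ECs in 1 cell, without which the ratio was -2.63. Mgp, a matrix protein of arteries, had -2.91 and Stmn2 -2.26, again with most UMIs in 1 cell (75.6% and 80.4%), and -4.94 and -4.61 without it. Further genes were Fbln2, an extracellular matrix gene, at 44.2 against 143 CPM (-1.69), Slco2a1, a prostaglandin transporter, at 49.3 against 128 CPM (-1.38), and Ptgs1, which encodes cyclooxygenase 1, at 8.86 against 22.3 CPM (-1.33). The remaining genes that the size rule named were Tagln, Slc6a6, Rbp7, Nts, Syt15, Hebp1, Gkn1, Apoe, Aldh2 and Itgb4, with log2 ratios between -1.32 and -0.93. Over the alternative settings described at the end, Nts ran from -3.96 to -0.07, Tagln from -4.03 to -0.92 and Slc6a6 from -2.72 to -0.39. The others stayed at -0.65 or lower. When the Cxcl9-zero ECs were weighted to the clusters of the Cxcl9-expressing ECs, the arterial median was -0.44, the ratio of Gja4 -0.74, and 42 genes instead of 80 were 2-fold lower.

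Transcript levels were ordered along the Cxcl9 value. Over the 5 classes (0; above 0 and under 1; 1 to under 2; 2 to under 3; 3 or more), Cxcl10 was at 10.4, 51.0, 388, 1132 and 1618 CPM. Gbp2 went through 29.6, 59.1, 202, 418 and 910 CPM. Both were thus highest in the 47 cells with the most Cxcl9, and already higher than at 0 in the 326 cells under the threshold. Ubd was concentrated at the top, with 4.58, 10.4, 40.3, 58.2 and 658 CPM. Cd74 had 1.25, 9.56, 27.3, 39.2 and 118 CPM. Summed over the list, the 33 antiviral genes also rose, through 3735, 4794, 8738, 10653 and 11939 CPM. Within that list Rsad2 did not keep this order: it had 34.3, 120.5, 594, 943 and 546 CPM. Ifit3 likewise had less in the top class (258 CPM) than in the class below (306 CPM). Pecam1 lay between 920 and 1032 CPM in all classes, and Gja4 went from 62.3 CPM at 0 to 10.96 CPM at 3 or more. The median depth of the classes was 27752, 44554, 38476, 30500 and 29454 UMIs.

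**Figure D3:**
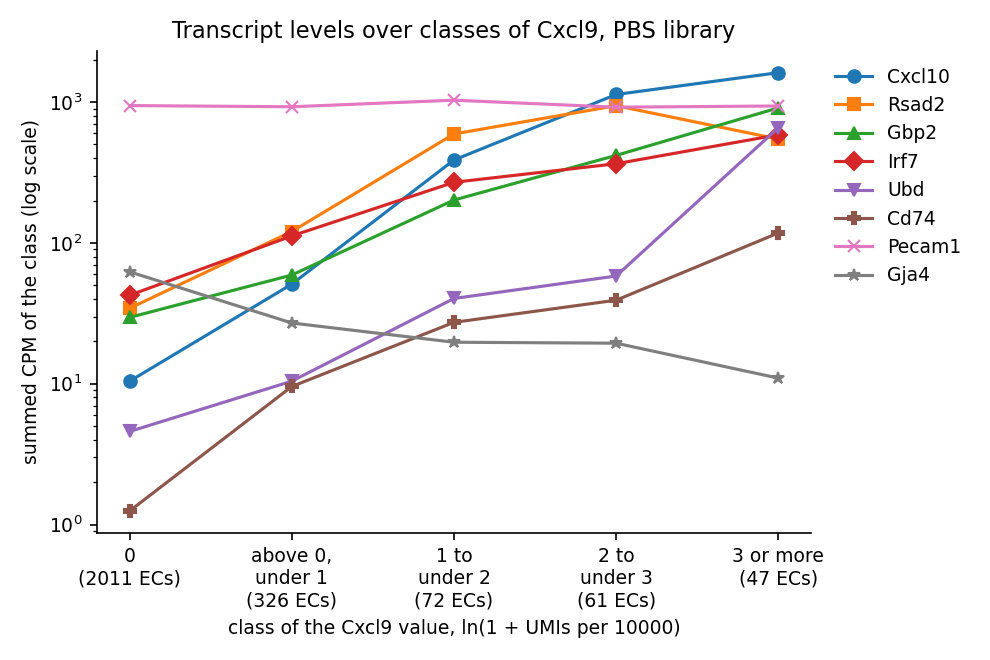
Summed CPM of 8 genes (y axis, log scale) over 5 classes of the Cxcl9 value of PBS ECs (x axis, number of cells in brackets). Cxcl10, Gbp2, Ubd and Cd74 are highest in the class of 3 or more, Rsad2 is highest in the class from 2 to under 3, Pecam1 is level and Gja4 is lowest in the top class.

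The Cxcl9-expressing ECs were not uniform. For each cell the UMIs of the GTPase list and of the antiviral list were summed per 10000 UMIs and set against the 95th percentile of the Cxcl9-zero ECs, 9.84 for the GTPases and 74.97 for the antiviral genes. The GTPase sum of the Cxcl9-expressing ECs ran from 0 to 143 with a median of 16.5, against a median of 2.61 in the Cxcl9-zero ECs, and the antiviral sum from 21.1 to 442 with a median of 84.4, against 36.2. Both sums were above the percentile in 96 cells (53.3%), the GTPases alone in 27 (15%), the antiviral genes alone in 9 (5%) and neither in 48 (26.7%). The cells above neither had a median depth of 39609 UMIs, and those above both 30301.5 UMIs. Within 10% of the percentile lay 8 cells for the GTPases and 24 for the antiviral genes. The share of cells above the GTPase percentile was 51.4%, 72.1% and 89.4% in the Cxcl9 classes of 1 to under 2, 2 to under 3 and 3 or more. For the antiviral percentile it was 44.4%, 54.1% and 85.1%.

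Cxcl10 was unevenly spread over these cells. It was at 1651 CPM in the 96 cells above both percentiles and at 412 CPM in the 27 with high GTPases alone, where Rsad2 was at 77.9 CPM. In the 9 cells with high antiviral sums alone Cxcl10 was at 5.85 CPM and Rsad2 at 138 CPM, and in the 48 cells with neither at 14.4 and 30.7 CPM. These 9 cells are few, and 1 of them had a Cxcl10 UMI, so that its level there is imprecise.

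**Figure D4:**
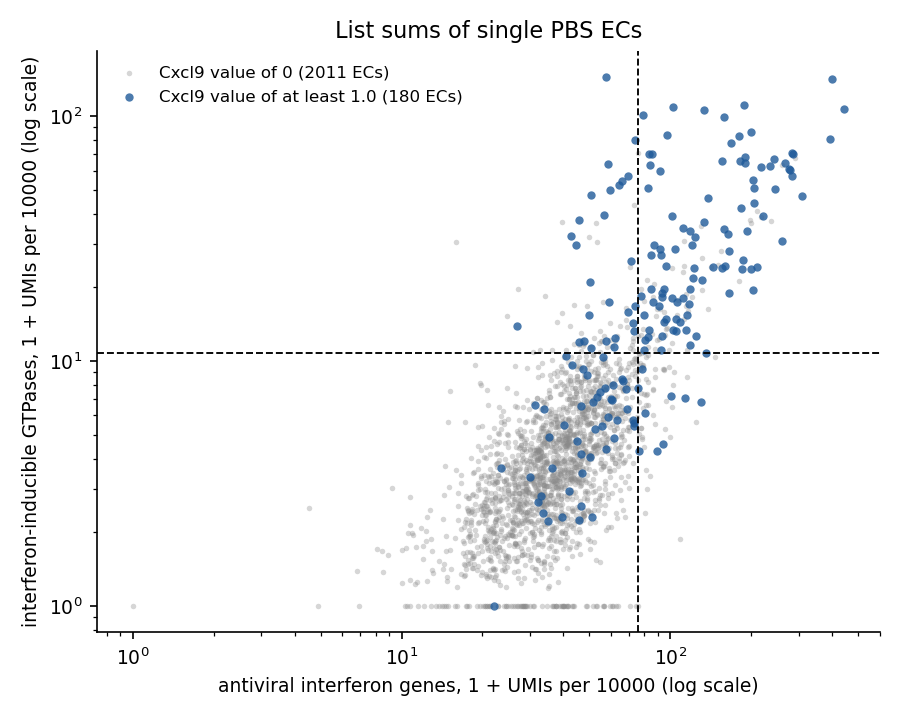
Sum of the antiviral interferon genes (x axis) and of the interferon-inducible GTPases (y axis) in single PBS ECs, as 1 plus UMIs per 10000 on log scales, for 180 Cxcl9-expressing (blue) and 2011 Cxcl9-zero ECs (grey), with the 95th percentiles of the latter dashed. In the upper right field lie 96 blue cells and 50 grey cells, and in the lower left 48 blue cells.

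Some Cxcl9-zero ECs had high interferon gene sums too. Both sums were above the percentiles in 175 PBS ECs, of which 96 (54.9%) were Cxcl9-expressing, 50 (28.6%) Cxcl9-zero and 29 between. Within them the antiviral genes had a median log2 ratio of 0.23 between Cxcl9-expressing and Cxcl9-zero ECs, and Rsad2 stood at 1311 and 1013 CPM. The 15 measured GTPases had a median of 0.70. At least 2-fold higher were 5 of them and 2 of the 33 antiviral genes, against 3.92% of all 9462 genes measured in these cells. Gbp2, the GTPase with the largest ratio, was at 637 against 172 CPM (log2 ratio 1.89, 1.69 to 2.10). Ubd, of another list, was at 303 against 27.0 CPM (3.49, 2.99 to 4.02). Cxcl10 was at 1651 against 285 CPM (2.53) and Vcam1 at 176 against 50.9 CPM (1.79). Cd74 had 273 UMIs in these Cxcl9-expressing ECs, in 13 of the 96 cells, and 0 in the Cxcl9-zero ECs. Ccl5 had 462 and 0, most of them in 1 cell. Irf1 had a log2 ratio of 1.049. Without the cells with a leucocyte UMI, 4 and 2 in number, Cd74 still had 273 and 0 UMIs, an alternative chosen after seeing the data. The 16 macrophage and monocyte markers summed to 55.2 and 56.4 CPM, with Csf1r at 1 and 0 UMIs and Adgre1 at 0 in both, but 3 of the 4 measured ones were at least 2-fold higher in the Cxcl9-expressing ECs. Fcer1g had 58 and 0 UMIs, Lyz2 31 and 3, and Cd68 27 and 3. Their part in the Cd74 difference was not tested.

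The 2 groups above both percentiles also differed in their clusters. Arterial ECs were 5 of the 96 Cxcl9-expressing and 12 of the 50 Cxcl9-zero ECs, and Gal and Chga tip-like ECs 29 and 6. Of 13 measured arterial markers 8 were at least 2-fold lower in the Cxcl9-expressing ECs (median log2 ratio -1.25), against 206 of all 9462 measured genes. Among the 8 were Stmn2 (-3.85), Nts (-3.33) and Gja4 (-3.18). How much of the other ratios goes with the clusters was not tested. Because the percentiles were set on the list sums, the ratios of Gbp2, Rsad2 and the lists inside this selection are bounded by it, whereas Cxcl10, Ubd, Cd74 and Vcam1 were not used for it.

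In the 48 Cxcl9-expressing ECs above neither percentile, some interferon targets were still higher than in the 1859 Cxcl9-zero ECs of the same kind. Irf7 was at 232 against 33.7 CPM (log2 ratio 2.78, 2.64 to 2.93) and H2-K1 at 2143 against 911 CPM (1.23). Cd74 was at 23.03 against 1.29 CPM (4.16), but 5 of the 48 cells, and no more, had a Cd74 UMI. Irf1 was at 46.5 and 45.7 CPM (0.02, -0.28 to 0.32) and Vcam1 at 39.3 and 36.3 CPM. Cxcl10 was at 14.4 and 4.93 CPM. Some of these cells lay close to the percentiles, as counted above.

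The PBS ECs were clustered without the genes of the immune lists, and the clusters were named from fixed markers. Cxcl9-expressing ECs occurred in all 6 clusters. They made up 11.5% (8.91 to 14.6) of a cluster of 511 cells led by Ramp3 that had too few raised markers to be named, 8.89% (6.83 to 11.3) of 664 tip-like ECs led by Gal and Chga, and 5.50% (3.92 to 7.47) of 691 proliferative ECs. The shares were 4.27% (2.23 to 7.34) of 281 stalk-like (venous) ECs, 2.90% (1.34 to 5.44) of 310 arterial ECs, and 3 of 60 cells in a cluster led by Mt1 and Bnip3. The last cluster took the name tip-like by the marker rule, but Pgf was its sole tip-like marker among the 10 leading genes, which included Bnip3, Egln3, Vegfa and Slc2a1 of the hypoxia list. The intervals of the unnamed and of the Gal and Chga cluster thus did not meet that of the arterial cluster. Thinned to 5000 UMIs, a Cxcl9 UMI was found in 15.5% of the unnamed, 11.5% of the Gal and Chga, 7.34% of the proliferative, 7.43% of the stalk-like and 4.04% of the arterial cells. Proliferative ECs were deepest, at a median of 40571 UMIs, and arterial ECs shallowest, at 18753 UMIs. Leading genes of the unnamed cluster included Cxcl9, Ifit1 and Iigp1, although the listed immune genes had not been used to form it. Left without the variable genes that differed 2-fold between the groups as well, the unnamed clusters held 29.4% of the Cxcl9-expressing and 22.6% of the Cxcl9-zero ECs, a smaller gap than 32.8% against 19.6%. Cxcl9-expressing ECs were then 9.30% of the unnamed and 9.21% of the tip-like cells.

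Read the other way, 32.8% (26.0 to 40.2) of the Cxcl9-expressing ECs lay in the unnamed cluster, against 19.6% (17.9 to 21.4) of the Cxcl9-zero ECs. For the Gal and Chga cluster the shares were 32.8% and 24.1%, for the proliferative cluster 21.1% and 27.4%, for the stalk-like cluster 6.67% and 12.3%, and for the arterial cluster 5% (2.31 to 9.28) and 13.9% (12.4 to 15.5). Of 17 measured tip-like markers, 2 were at least 2-fold higher in the Cxcl9-expressing ECs and 1 was 2-fold lower (median log2 ratio 0.37). The 2 were Gal, a neuropeptide, at 233 against 98.8 CPM, and Chga, a granule protein, at 264 against 112 CPM. The difference in Gal rested in part on 1 cell, without which its log2 ratio was 0.90 instead of 1.24. The proliferative markers had a median log2 ratio of -0.36. At a resolution of 0.3 no cluster stayed unnamed and the cells of the Ramp3 cluster were joined to the arterial one, and the joint cluster held 37.8% of the Cxcl9-expressing and 33.1% of the Cxcl9-zero ECs.

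**Figure D5:**
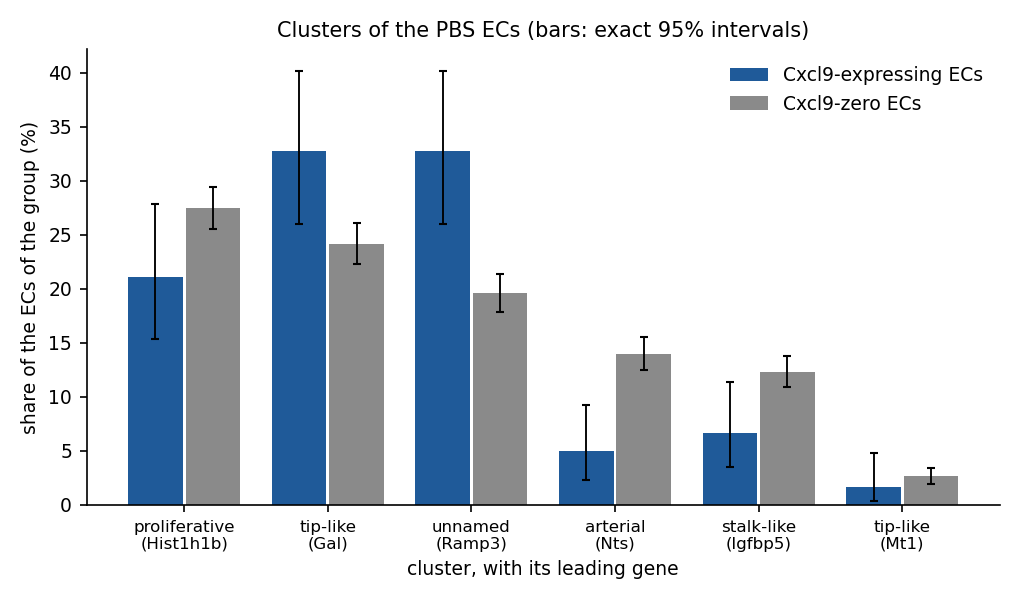
Share (%) of the 180 Cxcl9-expressing (blue) and 2011 Cxcl9-zero PBS ECs (grey) in each of 6 clusters (y axis), with exact 95% binomial intervals as bars, and the leading gene of each cluster below its name (x axis). The Ramp3 cluster holds 32.8% of the Cxcl9-expressing and 19.6% of the Cxcl9-zero ECs, and the arterial cluster 5% and 13.9%.

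The GTPase ratio was above 0 within each cluster when Cxcl9-expressing ECs were compared with Cxcl9-zero ECs of the same one. The median log2 ratio of the 15 GTPases was 3.04 in proliferative, 3.02 in Gal and Chga tip-like, 2.79 in unnamed, 2.26 in stalk-like and 2.21 in arterial ECs, and 2.17 in the Mt1 and Bnip3 cluster. For the antiviral genes it was 2.14, 1.98, 2.15 and 1.81 in the first 4 of these and lower in the other two, at 0.68 in arterial ECs and 0.43 in the Mt1 and Bnip3 cluster, which held 9 and 3 Cxcl9-expressing ECs. In arterial ECs Rsad2 had a log2 ratio of -0.61, and Gbp2 had 2.55. Whether these clusters differ cannot be said from so few cells of 1 mouse.

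In the cGAMP library the same rule took 796 of 1340 ECs (59.4%, 56.7 to 62.0) and left 223 at 0. Mouse and treatment cannot be told apart between the libraries, and the groups were therefore read within each. Among 9434 measured genes, 116 (1.23%) were at least 2-fold higher in the Cxcl9-expressing ECs and 86 (0.912%) lower, while 3.21% were at least 1.5-fold higher, 3.44% at least 1.5-fold lower and 46.1% higher by any size. Of 15 GTPases 12 were 2-fold higher, with a median log2 ratio of 1.23 against 2.70 in the PBS library, and of 32 antiviral genes 17 were, with a median of 1.02 against 2.06. Summed over the list, the GTPases were at 1940 CPM in Cxcl9-expressing and 797 CPM in Cxcl9-zero ECs after cGAMP, against 2381 and 335 CPM after PBS. The antiviral genes summed to 13661 and 8664 CPM after cGAMP and to 10112 and 3735 CPM after PBS. The Cxcl9-zero ECs were thus higher in the cGAMP library for both lists, and the Cxcl9-expressing ECs were lower for the GTPases and higher for the antiviral genes.

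Cxcl9-expressing ECs of both libraries, side by side, resembled each other in Isg15 (937 CPM after PBS and 1004 after cGAMP), Cd74 (52.0 and 47.1) and Socs1 (20.6 and 20.9), and held 1487 and 1793 CPM of Cxcl9. Those of the PBS library had more Cxcl10 (919 and 349 CPM), Rsad2 (700 and 210), Ifit2 (173 and 42.4) and Cmpk2 (158 and 32.6). They had less Ccl5 (63.2 and 598 CPM), Ubd (188 and 626), Serping1 (31.0 and 245) and Csf3, the neutrophil growth factor (1.19 and 92.0). The log2 ratios of PBS over cGAMP were 1.40 (1.35 to 1.44) for Cxcl10, 1.73 (1.68 to 1.78) for Rsad2, -3.24 (-3.38 to -3.11) for Ccl5 and -1.73 (-1.81 to -1.66) for Ubd. These intervals do not cover the spread between cells, and most Ccl5 UMIs of the PBS group came from 1 cell. The 2 mice, their treatments and the depth of the libraries differ together, and the part of each was not tested.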

How the data were processed

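ECs of 1 PBS-treated and 1 cGAMP-treated LLC tumour were profiled. Per the submitters' notes, reads were mapped to mm10 in Cell Ranger 3.0.0 and handled in Seurat 3.1.1. The authors dropped cells under 500 genes or over 10% mitochondrial UMIs, genes in under 3 cells, and clusters lacking Pecam1. The deposited values are natural logs of 1 plus UMIs per 10000, from which whole UMIs were recovered for 100% of the values (tolerance 0.01).

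UMIs were summed per group in Python 3.11.15 with scipy 1.17.1, and ratios, with intervals at the 95% level, were checked on simulated counts. These counts were drawn with counting error alone, so the check does not cover spread between cells. A gene at 0 in a group was set to 3 counts. Genes with at least 5 CPM in either group counted as measured. By rule the text names chemokine, receptor and interferon signalling genes, the extreme and most abundant genes of the other lists, and the 15 largest ratios per direction among genes with at least 20 CPM whose sign was equal in every cluster with at least 20 cells of each group. Further genes were named for their roles after their values were seen.

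PBS ECs were clustered in Seurat 5.3.0 (R 4.3.3) on 2359 of 2500 variable genes, the immune lists being left out, with 30 principal components at resolution 0.5. A name needed 3 raised markers. Thinning drew 5000 UMIs per cell. Doublets were not removed here. The cells and lists were chosen with earlier results of these data known. Some listed genes are not reported here.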

Additional observations from a re-analysis of the deposited data

Results flagged for a closer look

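With the same groups formed in both libraries, 6 listed or named genes differed at least 1.5-fold in opposite directions. None of these differences between the libraries was tested, since each library is 1 mouse. The heat shock genes Hspa1a and Hspa1b, which encode inducible HSP70 chaperones, had log2 ratios of Cxcl9-expressing over Cxcl9-zero ECs of 0.81 and 0.86 after PBS and of -1.55 and -1.48 after cGAMP. Tagln, a gene of contractile cells, had -1.32 and 1.37, and Syt15 had -1.19 and 0.80. Tnfrsf9, which encodes the costimulatory receptor 4-1BB, had 0.61 and -0.67. The haemoglobin gene Hbb-bs had -6.98 and 5.88, the latter from 8.44 against 0.143 CPM. In the PBS library 68.1% of the Hbb-bs UMIs of the Cxcl9-zero ECs were in 1 cell, and the Cxcl9-expressing ECs had 5 UMIs in all.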

How the results depend on the processing

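Shares and ratios come from 1 mouse per library, and depth limits genes near 5 CPM and the clusters with few Cxcl9-expressing ECs. No paired analysis was possible because the compared cells are of 1 library and no result comes from a test. Of 321 named or listed genes, 46 changed sign under at least 1 alternative. Among the 159 at least 1.5-fold from equal, this was 1: Egln3, at 0.71, was at -0.11 without the 5% deepest cells.

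The medians of the GTPases (2.70) and the antiviral genes (2.06) were 2.76 and 2.12 with the median of all genes set to 0, 2.83 and 2.10 with depths weighted, 2.78 and 1.98 with clusters weighted, 3.03 and 2.16 for Cxcl9 values of at least 2, 2.35 and 1.87 for at least 0.5, 2.56 and 1.86 against all cells under the threshold, 2.74 and 2.09 without cells with leucocyte UMIs, 2.76 and 2.13 without cells over 5% mitochondrial UMIs, and 2.59 and 2.04 at a minimum of 20 CPM. The antiviral median was also 2.09 with cells weighted equally and 2.10 without the deepest cells. The 80 genes 2-fold lower became 128 with cells weighted equally, 42 with clusters weighted, 155 at a Cxcl9 value of at least 2 and 19 at 20 CPM, where fewer genes are tested. The count of genes 2-fold higher stayed within 1.5 times of 185 in these alternatives.

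The share of Cxcl9-expressing ECs (7.15%) was 4.29% and 10.29% at thresholds of 2 and 0.5, 9.81% for any UMI after thinning and 8.78% without cells over 5% mitochondrial UMIs. At resolution 0.3 the unnamed clusters held 0% and the arterial ones 37.8% of them. At 0.8 the unnamed held 45% and the proliferative 13.3%. With all 2500 variable genes the unnamed held 46.7% and the tip-like 27.2%. The alternatives of at least 4 Cxcl9 UMIs and of clustering also without the 2-fold genes were chosen after seeing the data. Where a value moved and its setting does not itself show why, the cause was not tested.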

Other observations

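When all 2500 variable genes were used for clustering, immune genes included, a cluster of 88 PBS ECs led by Cxcl10, Rsad2 and Ifit2 formed, which held 61 of the 180 Cxcl9-expressing ECs (33.9%), 12 with values between and 15 Cxcl9-zero ECs. At a resolution of 0.8 without the immune genes, a similar cluster of 39 cells held 32 of them (17.8%). Both clusters were formed in part by genes that separate the groups, and their leading genes were seen before they were described.

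Further vascular lists, which share some genes with the tip-like and arterial markers, showed few differences. Of 24 measured VEGF, Notch and tip genes none was 2-fold higher or lower (median log2 ratio -0.01), 2 were at least 1.5-fold higher and 1 at least 1.5-fold lower. Kdr, the main VEGF receptor gene, was at 295 against 306 CPM and Esm1, a marker of angiogenic ECs, at 289 against 338 CPM. The 7 measured capillary markers had a median of -0.02, from Car4 at 49.3 against 27.3 CPM to Fabp4 at 1031 against 1546 CPM. The 14 fibroblast and mural markers summed to 42.3 and 49.9 CPM and the 4 tumour epithelial markers to 4.37 and 1.93 CPM, with 64.3% of the 14 Krt8 UMIs of the Cxcl9-expressing ECs in 1 cell. The 9 erythrocyte and platelet genes summed to 14.3 and 161 CPM.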
